A study of Homo sapiens with 9 samples.

Results

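Interferon-stimulated genes are the genes that a cell switches on after interferon has bound its receptor, and 49 of them were followed here in SNU5 cells treated with gold nanorods or gold nanospheres that carried an antibody, beside the antibody alone. The genes were taken from a written list, with antigen presentation and proteasome genes left out, and matched by symbol to the Ensembl IDs of the count files. All 49 were found among the 60880 gene IDs. The labels name the cells SNU5, an established human gastric carcinoma line. The NR group received AuNR-PEG-Ab (ramucirumab, a monoclonal antibody against VEGFR2, coupled to gold nanorods through PEG), the SP group AuSP-PEG-Ab (the same antibody on gold nanospheres), and the Ab group ramucirumab alone. Each group was treated for 24 h at 8 μg/mL of antibody and gave 3 poly-A RNA-seq libraries, 9 in all. The groups used here hold no untreated cells and no particles without antibody, so the gold, the PEG and the coupling of the antibody cannot be told apart, and all values come from 1 cell line. KDR, the gene of VEGFR2, had at most 1 count in any library. By flow cytometry, which does not measure RNA, the paper reports that SNU5 cells took up more antibody as more was added. It proposes that these cells may express VEGFR2 highly. The authors call the libraries of a group biological replicates, and the labels do not name a culture for each, so p-values measure the spread between these libraries.

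Type I and type III interferons act through their receptors and the kinases JAK1 and TYK2 on STAT proteins such as STAT2, which joins IRF9 in a complex named ISGF3. ISGF3 binds a sequence called the ISRE (interferon-stimulated response element) near the start of its target genes, whereas interferon gamma acts through paired STAT proteins on a sequence called GAS. The products sense foreign RNA, block the entry, translation and release of viruses, and tag proteins with the ubiquitin-like ISG15. Many tumour cell lines keep some of these genes active without added interferon.

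Reads assigned to genes summed to 25735410, 13863155 and 15943980 counts in NR libraries 1, 2 and 3, to 21682836, 22914759 and 20601906 in SP, and to 19566064, 26318227 and 21031024 in Ab. Levels are given below in CPM, a gene's counts per 1000000 counts of its library. A count of 0 allows up to 3 counts, which is 0.114 to 0.216 CPM in these libraries and covers counting error only. Epithelial markers were uneven: KRT8, KRT18 and CLDN4 were well counted, EPCAM had 29 to 141 counts and CDH1 5 to 159, and KRT19 had at most 1. The leukocyte markers PTPRC, CD3E, MS4A1 and LYZ had at most 2 counts in any library. With KRT19 and KDR almost absent and markers of several cell types that differed between Ab and both particle groups (given below), the data bear out the label only in part. A difference in the cells of the Ab libraries and an effect of the treatment cannot be told apart here.

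The 5 promoters printed first belong to the called genes with an ISRE match whose larger change, in NR or in SP against Ab, was greatest, and the sixth to a gene that moved the other way. Each run is the 180 bases before the RefSeq start of the gene (GRCh38.p14), read 5′ to 3′ on the strand of the gene, and the capitals mark ISRE matches. The windows are chr1:27672193-27672372 (minus strand) for IFI6, chr10:89392443-89392622 (plus) for IFIT1, chr1:78649609-78649788 (plus) for IFI44, chr11:313860-314039 (plus) for IFITM1, chr11:320861-321040 (minus) for IFITM3 and chr10:89414388-89414567 (plus) for IFIT5. IFIT5 was added after its values were seen.
IFI6: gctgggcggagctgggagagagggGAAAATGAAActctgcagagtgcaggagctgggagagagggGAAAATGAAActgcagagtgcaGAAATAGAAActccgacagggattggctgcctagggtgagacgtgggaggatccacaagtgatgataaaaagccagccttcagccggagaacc
IFIT1: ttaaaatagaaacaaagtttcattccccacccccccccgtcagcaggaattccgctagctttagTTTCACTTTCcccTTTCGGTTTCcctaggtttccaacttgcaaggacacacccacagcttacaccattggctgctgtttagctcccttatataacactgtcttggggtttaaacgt
IFI44: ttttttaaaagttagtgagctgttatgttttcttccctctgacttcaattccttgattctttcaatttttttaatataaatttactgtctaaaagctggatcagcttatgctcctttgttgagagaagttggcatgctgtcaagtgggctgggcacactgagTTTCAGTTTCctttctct
IFITM1: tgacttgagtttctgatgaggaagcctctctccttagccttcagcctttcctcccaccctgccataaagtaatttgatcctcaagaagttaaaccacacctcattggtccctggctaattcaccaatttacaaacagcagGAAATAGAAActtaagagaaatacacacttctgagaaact
IFITM3: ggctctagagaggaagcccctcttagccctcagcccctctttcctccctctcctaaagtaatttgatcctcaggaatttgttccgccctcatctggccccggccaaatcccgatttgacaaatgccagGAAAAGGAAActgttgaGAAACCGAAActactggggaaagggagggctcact
IFIT5: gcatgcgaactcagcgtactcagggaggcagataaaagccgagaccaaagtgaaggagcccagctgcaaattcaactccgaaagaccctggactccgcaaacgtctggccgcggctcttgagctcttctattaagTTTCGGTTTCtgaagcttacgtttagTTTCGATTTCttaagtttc

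In NR compared with Ab, 21 of the 40 listed genes that could be tested were called higher and 2 were called lower, where called means an adjusted p of at most 0.05 in edgeR and a change of at least 2-fold. The share called higher was 52.5%, beside 12.4% of all 15009 genes tested, and the share called lower was 5%, beside 10.3%. In SP compared with Ab, 24 of 41 were called higher (58.5%, beside 12.6% of all 15068 genes tested) and 2 lower (4.88%, beside 10.6%). The median log2 fold change of the listed genes was 1.05 in NR and 1.22 in SP, beside -0.01 over all genes tested in each comparison. The comparisons share the 3 Ab libraries. The same 21 genes were called higher in both, SP added IFI35, MX1 and TRIM22, and IFI16 and IRF9 were called lower in both. By the adjusted p alone, 28 listed genes were higher and 5 lower in NR, with 36.4% of all genes in each direction, and 30 were higher and 3 lower in SP, with 36.4% and 36.6% of all genes. In what follows, rose and fell are used of genes past the adjusted p, and called of those that also changed at least 2-fold.

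The listed genes together took 0.232% to 0.237% of the counts of NR libraries, 0.232% to 0.238% of SP and 0.111% to 0.114% of Ab. Their summed level was 2342 ± 21.3 CPM (SD, n = 3) in NR, 2359 ± 32.3 in SP and 1125 ± 15.4 in Ab. All 6 nanoparticle libraries thus lay above all 3 Ab libraries. LGALS3BP was the largest single contributor, and without it the sums were 1684, 1708 and 865 CPM. In bulk RNA, more cells that express a gene and more RNA per cell cannot be told apart. The share of mitochondrial counts moved with the groups, at 4.36% to 4.66% in NR and SP and 3.41% to 3.71% in Ab, and its part in the result was not tested. GBP2 and IRF9 passed the filter on low counts through 1 group of libraries only in both comparisons with Ab, and TRIM22 did so in SP against Ab, so their calls follow in part from the filter and are no support. Without them 20 of 38 listed genes were called higher in NR (52.6%) and 22 of 38 in SP (57.9%), 1 was called lower in each, and the medians were 1.05 and 1.21 on the log2 scale.

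**Figure D1:**
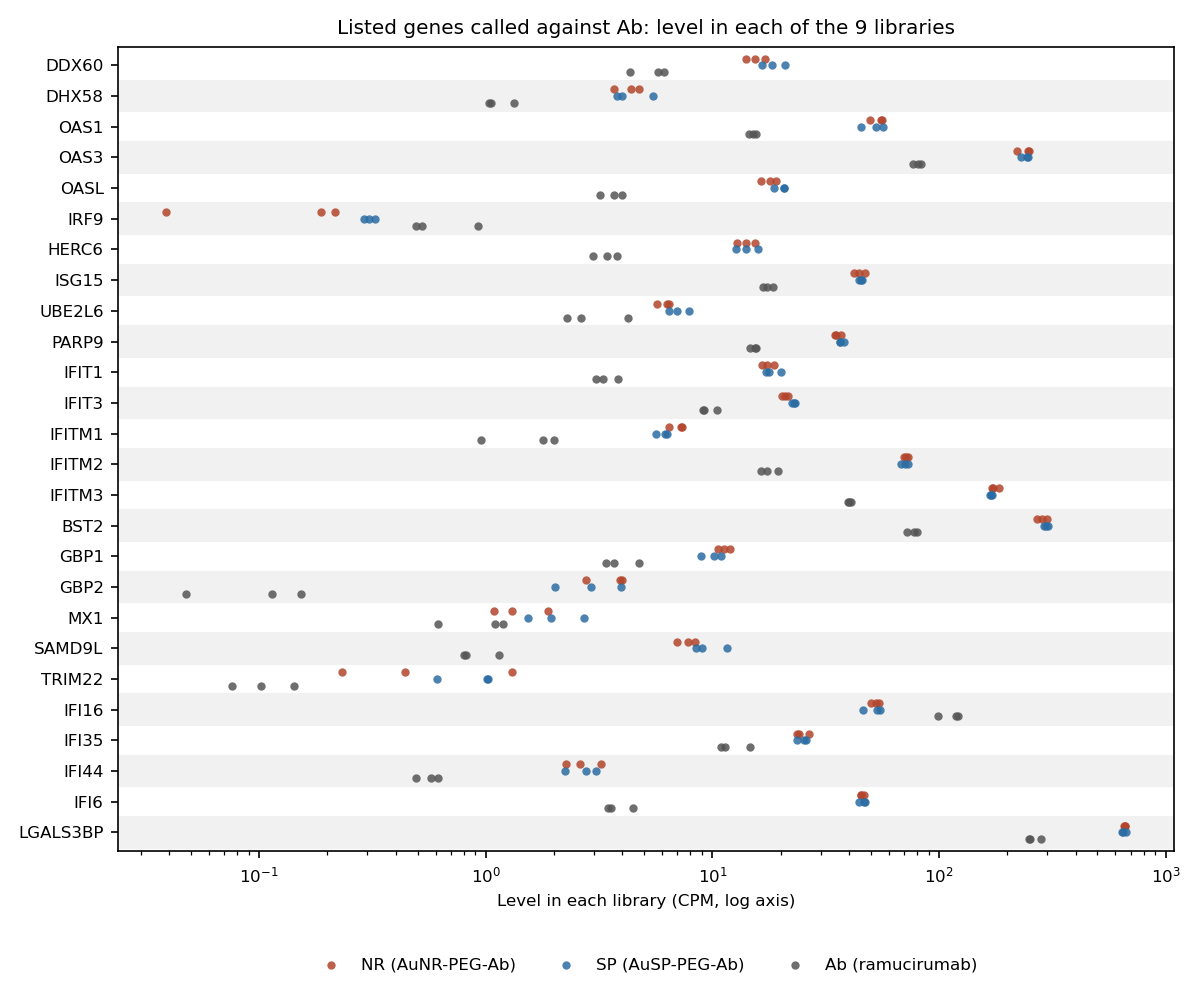
Level of each listed gene called against Ab in either comparison, in CPM on a log axis, with 1 point per library (red NR, blue SP, grey Ab, 3 each). The NR and SP points lie to the right of the Ab points for most genes, and IFI16 and IRF9 show the opposite order.

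Sensors of foreign RNA and the enzymes it activates made up 9 of the listed genes, of which 8 were tested and 5 were called higher in both comparisons. That is 62.5%, beside 12.4% and 12.6% of all genes in NR and SP. OAS3 and OAS1 make the oligoadenylates that activate RNase L. OAS3 stood at 220, 248 and 250 CPM in NR, 229, 245 and 246 in SP, against 83.2, 80.4 and 76.5 in Ab. Its log2 fold change against Ab was 1.55 ± 0.05 (SE; adjusted p = 5.05e-20) in NR and 1.56 ± 0.05 (2.58e-20) in SP. OAS1 had 56.1, 49.8 and 55.5 CPM in NR, 45.2, 52.9 and 56.4 in SP, against 15.1, 15.6 and 14.5 in Ab, a log2 fold change of 1.81 ± 0.07 and 1.74 ± 0.08. OASL, a relative that binds RNA sensors, changed most of this group. Its level was 16.3, 19 and 17.9 CPM in NR, 18.7, 20.7 and 20.7 in SP, against 3.99, 3.69 and 3.19 in Ab, and the log2 fold change was 2.26 ± 0.13 in NR and 2.44 ± 0.12 in SP. No library of NR or SP overlapped an Ab library for these 3 genes. The share of all genes without such overlap was not counted. This and the like statements below are therefore descriptions of the values only.

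DHX58 and DDX60 are helicases that act with the sensors RIGI and IFIH1. DHX58 was low, at 4.74, 3.68 and 4.39 CPM in NR, 5.49, 4.01 and 3.79 in SP, against 1.33, 1.03 and 1.05 in Ab (log2 fold change 1.91 ± 0.22 and 1.95 ± 0.22). DDX60 was at 15.4, 17 and 14.1 CPM in NR, 20.8, 18.4 and 16.6 in SP, against 4.34, 5.74 and 6.13 in Ab (1.48 ± 0.13 and 1.75 ± 0.12). Neither RIGI nor IFIH1 was called. IFIH1, the sensor of long double-stranded RNA also named MDA5, rose by less than 2-fold, with a log2 fold change of 0.96 ± 0.13 (adjusted p = 2.6e-07) in NR and 0.84 ± 0.12 (9.14e-07) in SP. Without NR replicate 1, without NR replicate 3 or without Ab replicate 3 its NR value was 1.06, 1.0 or 1.05 and was called. RIGI, the other cytoplasmic RNA sensor, gave log2 fold changes of -0.11 ± 0.13 (adjusted p = 0.458) and -0.22 ± 0.16 (0.221), and EIF2AK2, the kinase PKR that halts translation, 0.06 ± 0.05 (0.281) and 0.09 ± 0.05 (0.151). RIGI shares 43.22% of its exon bases with another annotated gene, so its counts are uncertain. OAS2 was not tested, with 1 to 7 counts per library.

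None of the 4 signalling genes rose in either comparison, beside 36.4% of all genes in each. STAT2 stood at 30 ± 0.966 CPM in NR, 30.2 ± 3.5 in SP and 31.9 ± 0.825 in Ab (SD, n = 3), with a log2 fold change of -0.11 ± 0.07 (adjusted p = 0.142) in NR and -0.11 ± 0.08 (0.225) in SP. IRF1, an early transcription factor of the interferon response, gave 0.18 ± 0.09 (0.0749) and 0.09 ± 0.10 (0.388). IRF7, which drives the interferon genes themselves, fell in NR (-0.61 ± 0.26, adjusted p = 0.0334) and gave -0.25 ± 0.25 (0.383) in SP. The fall of IRF7 in NR no longer passed with DESeq2 (adjusted p = 0.165), with no filter (0.0584), or without any single one of Ab replicate 1 (0.123), Ab replicate 2 (0.108) and the NR replicates (0.0541 to 0.0804). The difference between NR and SP for IRF7 was not past the test (-0.37 ± 0.27).

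IRF9, the DNA-binding subunit of ISGF3, was close to the floor in every library. The Ab libraries had 18, 13 and 11 counts of it, the SP libraries 7, 7 and 6, and the NR libraries 1, 3 and 3. The ratio of the summed counts, scaled to the library totals, was 4.98 times lower in NR than in Ab (exact 95% counting interval 2.22 to 13.1). In SP it was 2.05 times lower (1.17 to 3.68). IRF9 was tested only because of its counts in Ab, so its calls are given as a description. In NR it was not tested without Ab replicate 3 or with at least 10 counts required in every library, and its log2 fold change of -2.28 ranged from -2.66 to -1.65 when other libraries were left out. The call in SP, with a log2 fold change of -1.06, was lost without Ab replicate 1 (-0.74, adjusted p = 0.196), without SP replicate 1 (-1.10, 0.0671), without SP replicate 2 (-1.06, 0.0832) and without SP replicate 3 (-1.02, 0.0862), and with DESeq2 (adjusted p = 0.172). Annotated neighbours share 27.15% of the exon bases of IRF9.

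In the ISG15 system all 5 genes rose in both comparisons and 3 were called. Of all genes 36.4% rose in each comparison, and 12.4% and 12.6% were called higher in NR and SP. ISG15, the modifier, lies at chr1:936518-949920 (GRCh37, plus strand) and had 42, 44.3 and 47 CPM in NR, 45.2, 44.5 and 45.8 in SP, against 18.5, 17.4 and 16.7 in Ab. Its log2 fold change was 1.31 ± 0.07 (adjusted p = 2.78e-15) in NR and 1.34 ± 0.07 (1.6e-15) in SP. HERC6, a ligase of the ISG15 ligase family, was at 14.1, 15.4 and 12.9 CPM in NR, 15.9, 12.7 and 14.1 in SP, against 2.96, 3.42 and 3.8 in Ab, with 2.03 ± 0.14 in each comparison. HERC5, the main human ISG15 ligase, rose by less, with 0.61 ± 0.08 and 0.49 ± 0.09. USP18, which removes ISG15 and damps the interferon receptor, gave 0.48 ± 0.10 and 0.52 ± 0.09.

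UBE2L6, the enzyme that hands ISG15 to the ligases, lay at the 2-fold limit. It had 6.29, 5.7 and 6.46 CPM in NR, 7.01, 6.42 and 7.86 in SP, against 4.24, 2.62 and 2.28 in Ab, and neither NR nor SP overlapped Ab. The log2 fold change was 1.0 ± 0.19 (adjusted p = 3.52e-05) in NR and 1.21 ± 0.19 (2.29e-06) in SP. In NR it fell under 2-fold without Ab replicate 2 (0.89), Ab replicate 3 (0.84), NR replicate 1 (0.98) or NR replicate 3 (0.97).

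PARP9, DTX3L and PARP14, which attach ADP-ribose or ubiquitin in the interferon response, all rose, beside 36.4% of all genes in each comparison. PARP9 was called. PARP9 had 35, 37 and 34.9 CPM in NR, 38, 36.6 and 36.6 in SP, against 14.7, 15.5 and 15.4 in Ab, a log2 fold change of 1.20 ± 0.08 in NR and 1.26 ± 0.08 in SP. Its partner DTX3L gave 0.86 ± 0.07 and 0.89 ± 0.07, and PARP14 0.37 ± 0.05 and 0.41 ± 0.05.

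**Figure D2:**
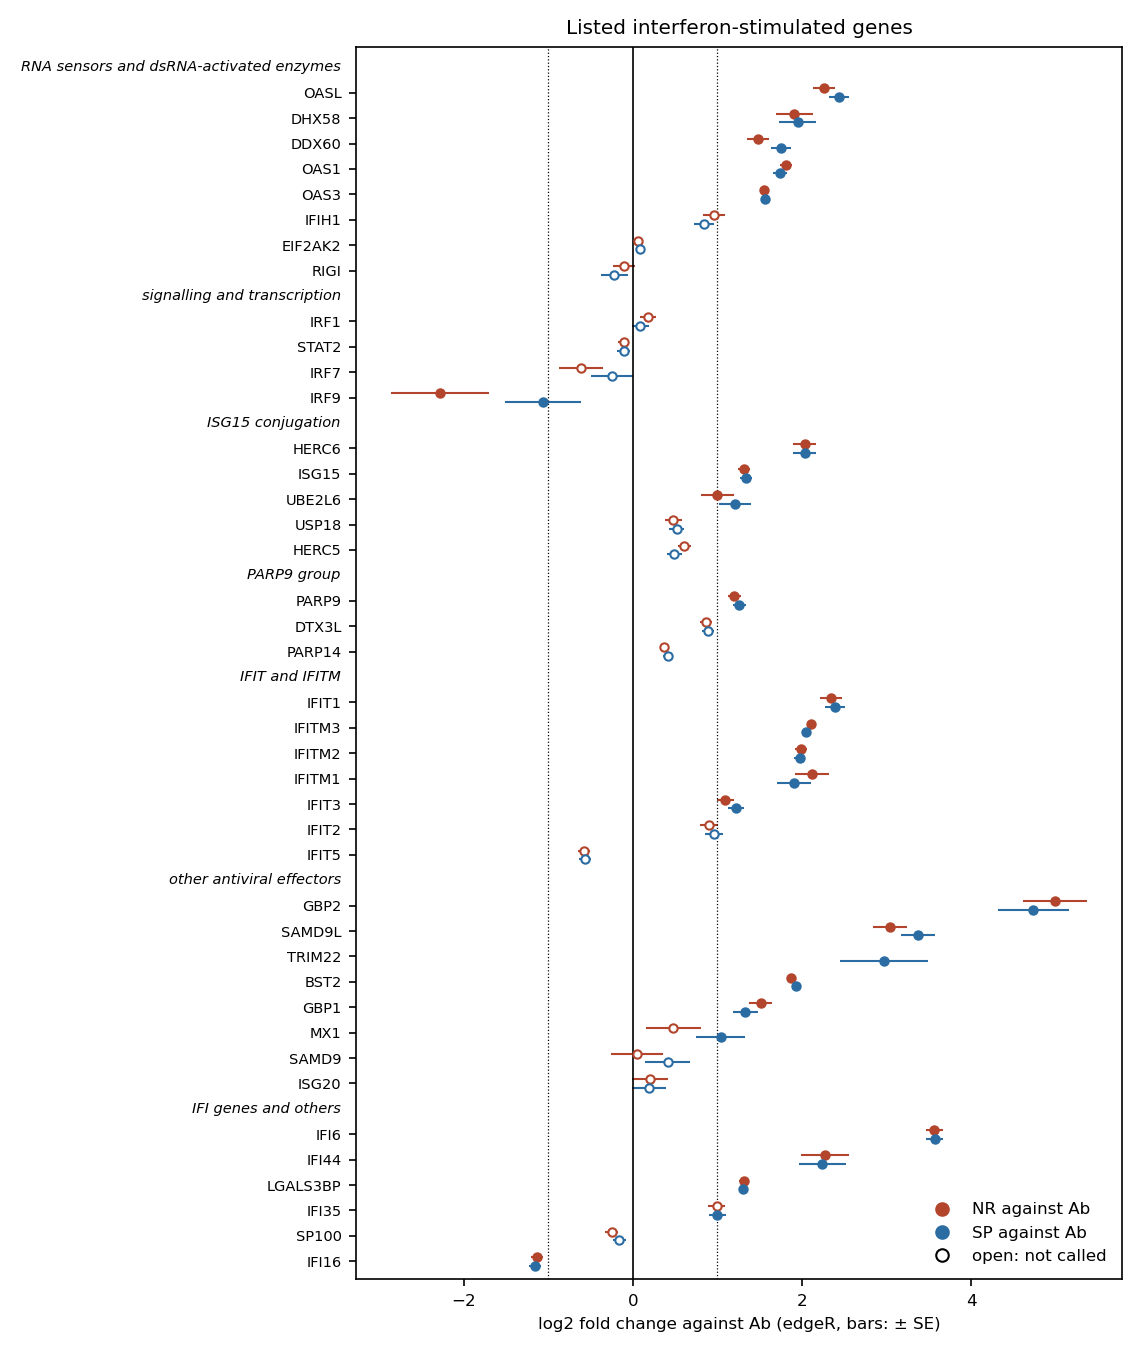
The log2 fold change against Ab of each listed gene tested, grouped by role, for NR (red) and SP (blue), with bars of 1 SE and dotted lines at 2-fold. Filled points were called; the red and blue points of a gene lie close together, and the signalling genes are the group with no filled point above 0.

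The IFIT proteins bind foreign or unusual RNA, and the IFITM proteins sit in membranes and hinder the entry of viruses. Of these 7 genes 5 were called higher in both comparisons (71.4%, beside 12.4% and 12.6% of all genes in NR and SP). The medians of the group on the log2 scale were 1.99 (NR) and 1.90 (SP). IFIT1 (chr10:91152303-91166244, GRCh37, plus strand) was at 18.7, 16.5 and 17.4 CPM in NR, 17.2, 17.7 and 20.1 in SP, against 3.07, 3.84 and 3.28 in Ab. The log2 fold change was 2.34 ± 0.13 (adjusted p = 8.25e-16) and 2.39 ± 0.12 (6.91e-16). IFIT3, which stabilises IFIT1, had 20.2, 20.8 and 21.6 CPM in NR, 22.9, 23.2 and 22.5 in SP, against 9.05, 10.5 and 9.18 in Ab (1.09 ± 0.10 and 1.22 ± 0.09). IFIT2 rose by 0.90 ± 0.11 and 0.96 ± 0.11, just under 2-fold, and was called without Ab replicate 2 (1.03 in NR, 1.09 in SP) and, in SP, without SP replicate 1 (1.02).

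IFIT5, which lies beside its relatives on chromosome 10, fell in both comparisons. It had 29.2, 26.4 and 28.9 CPM in NR, 28.3, 28.7 and 28.2 in SP, against 37.2, 44.2 and 42.5 in Ab. All nanoparticle libraries were below all Ab libraries, and the log2 fold change was -0.58 ± 0.07 (adjusted p = 6.82e-08) in NR and -0.57 ± 0.07 (6.06e-08) in SP.

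IFITM3, IFITM2 and IFITM1 rose to a similar degree from very different levels. IFITM3 (chr11:319676-329475, GRCh37, minus strand) was at 173, 172 and 183 CPM in NR, 171, 168 and 169 in SP, against 40.7, 39.5 and 40 in Ab, a log2 fold change of 2.11 ± 0.05 (adjusted p = 1.58e-23) and 2.05 ± 0.05 (2.26e-22). IFITM2 was at 72.7, 69.7 and 71.6 CPM in NR, 67.8, 73.3 and 71.1 in SP, against 19.5, 17.4 and 16.4 in Ab (1.99 ± 0.07 and 1.97 ± 0.07). IFITM1 had 7.31, 7.29 and 6.46 CPM in NR, 5.63, 6.15 and 6.31 in SP, against 1.99, 1.79 and 0.951 in Ab (2.12 ± 0.20 and 1.90 ± 0.20). The 3 genes are close in sequence and may share reads, and neighbouring genes overlap 31.63% of the exon bases of IFITM1 and 16.32% of those of IFITM3.

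Other antiviral effectors made up 11 of the listed genes. Of these, 4 of the 7 tested in NR (57.1%) and 6 of the 8 tested in SP (75%) were called higher, and none lower. Of all genes 12.4% and 12.6% were called higher. GBP2 is in both counts of these effectors and TRIM22 in the SP count, although each was tested only through the libraries where it is high. BST2, or tetherin, holds budding viruses at the cell surface. It had 285, 271 and 298 CPM in NR, 297, 291 and 302 in SP, against 80.3, 77.2 and 72 in Ab. Its log2 fold change was 1.87 ± 0.05 (adjusted p = 1.46e-22) in NR and 1.93 ± 0.05 (2.26e-22) in SP. SAMD9L and SAMD9 are neighbouring relatives that restrict poxviruses and restrain growth, and they differed. SAMD9L (chr7:92759369-92777698, GRCh37, minus strand) had 7.77, 7 and 8.34 CPM in NR, 11.6, 8.95 and 8.45 in SP, against 0.818, 0.798 and 1.14 in Ab, or 8.25-fold more in NR (log2 fold change 3.04 ± 0.20, adjusted p = 8.09e-14) and 10.4-fold more in SP (3.37 ± 0.20, 1.15e-14). SAMD9 had 33.3, 23.6 and 27 CPM in NR, 39.8, 35.5 and 33.3 in SP, against 17.2, 29.3 and 33.6 in Ab, with 0.05 ± 0.31 (0.889) and 0.41 ± 0.27 (0.243). The NR value of SAMD9 changed sign without Ab replicate 1 (-0.17) or NR replicate 1 (-0.12).

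The guanylate-binding proteins GBP1 and GBP2 are GTPases that attack pathogen vacuoles. GBP1 had 12, 11.3 and 10.6 CPM in NR, 10.2, 10.9 and 8.93 in SP, against 3.68, 3.38 and 4.75 in Ab (log2 fold change 1.51 ± 0.14 and 1.33 ± 0.15). GBP2 had 103, 54 and 44 counts in the NR libraries, 44, 90 and 60 in SP, against 3, 3 and 1 in Ab. The ratio of summed counts to Ab, scaled to the library totals, was 34.6 (exact 95% counting interval 16.5 to 87.1) in NR and 28.4 (13.5 to 71.7) in SP.

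MX1 and TRIM22 were called in SP and not in NR, which is not a tested difference between them. MX1, a dynamin-like GTPase that traps viral particles, had 1.09, 1.3 and 1.88 CPM in NR, 2.72, 1.53 and 1.94 in SP, against 0.613, 1.1 and 1.19 in Ab. The log2 fold change was 0.48 ± 0.32 (adjusted p = 0.176) in NR and 1.04 ± 0.29 (0.00244) in SP, and the SP value fell under 2-fold without Ab replicate 1 (0.82) or SP replicate 1 (0.78). The NR against SP difference for MX1 was -0.56 ± 0.28 (unadjusted 95% interval -1.14 to 0.02). TRIM22, an antiviral ubiquitin ligase, had 6, 18 and 7 counts in NR, 22, 14 and 21 in SP, against 2, 2 and 3 in Ab. It did not pass the filter in NR, where the ratio of summed counts to Ab was 5.34 (2.3 to 14.4) and the fit with no filter called it higher too (log2 fold change 2.42, adjusted p = 0.00119), and in SP the ratio was 8.36 (3.8 to 21.7). ISG20, an RNA exonuclease, gave 0.20 ± 0.21 (adjusted p = 0.402) and 0.19 ± 0.20 (0.399), and its NR value was -0.05 without NR replicate 1.

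Among the IFI genes and the remaining members, IFI6 had the largest change of any listed gene with more than 3 counts in every Ab library. IFI6, a membrane protein of the endoplasmic reticulum and mitochondria, lies at chr1:27992575-27998723 (GRCh37, minus strand). Its level was 46.5, 45.2 and 45.4 CPM in NR, 44.4, 46.5 and 47.1 in SP, against 4.45, 3.57 and 3.47 in Ab, which is 11.8-fold more in NR (log2 fold change 3.56 ± 0.10, adjusted p = 1.27e-22) and 11.9-fold more in SP (3.57 ± 0.10, 5.51e-22). Another annotated gene overlaps 23.08% of its exon bases. IFI44, whose product lies in the cytoplasm, had 3.23, 2.6 and 2.26 CPM in NR, 2.77, 2.23 and 3.06 in SP, against 0.613, 0.494 and 0.571 in Ab (2.27 ± 0.28 and 2.24 ± 0.28). LGALS3BP, a secreted glycoprotein that binds galectins, had 663, 660 and 652 CPM in NR, 639, 665 and 650 in SP, against 281, 252 and 249 in Ab (1.31 ± 0.05 and 1.30 ± 0.05).

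IFI35 lay at the 2-fold limit, with 24, 26.8 and 23.7 CPM in NR, 25.8, 23.7 and 25.3 in SP, against 14.7, 10.9 and 11.4 in Ab. Its log2 fold change was 0.99 ± 0.10 (adjusted p = 1.9e-09) in NR and 1.0 ± 0.10 (1.08e-09) in SP, so that it was called in SP alone. Leaving out 1 library moved it across the limit in either comparison, to 1.13 in NR without Ab replicate 1, 1.01 without NR replicate 1 and 1.02 without NR replicate 3, and in SP to 0.90 without Ab replicate 2, 0.95 without Ab replicate 3, 0.97 without SP replicate 1 and 1.0 (just under) without SP replicate 3. IFI16, a sensor of DNA, was lower with the particles. It had 54.5, 52.5 and 50.2 CPM in NR, 46.4, 54.9 and 53 in SP, against 99.4, 121 and 119 in Ab, and fell by 1.13 on the log2 scale (SE 0.07, adjusted p = 3.12e-13) in NR and by 1.16 (SE 0.07, 2.58e-11) in SP. SP100, a nuclear body protein, fell slightly in NR (-0.25 ± 0.08, adjusted p = 0.0101) and gave -0.16 ± 0.08 (0.0669) in SP, and its fall in NR no longer passed with DESeq2 (0.0524), without Ab replicate 2 (0.077) or without NR replicate 2 (0.0553).

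Several genes that are classical markers of an interferon response were at or near 0 in all 9 libraries. XAF1 had no count in any library, CMPK2 and RSAD2 (viperin, which makes an antiviral nucleotide) had at most 2, IFI44L at most 3 and EPSTI1 at most 4. MX2 had 0 to 7 counts and IFI27 0 to 13. None of these 7 passed the filter on low counts. In edgeR with no filter the 6 that have counts were tested, and the smallest adjusted p was 0.219 in NR (IFI44L) and 0.375 in SP (IFI27).

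Levels per exon length are given as RPKM (CPM per kilobase of exon). By the mean over all 9 libraries, the 5 most abundant listed genes were BST2, LGALS3BP, IFITM3, ISG15 and IFI6. The same 5 had the highest means in NR and in SP. In Ab the order differed, and IFI6 lay below several more listed genes. Among these were IFI16 at a mean of 21.3 RPKM, IFITM2 at 11, IFIT5 at 9.45 and EIF2AK2 at 8.75. BST2 had 259 ± 12.1 RPKM in NR, 270 ± 4.93 in SP and 69.5 ± 3.81 in Ab (SD, n = 3), and LGALS3BP 192 ± 1.64, 190 ± 3.91 and 76.1 ± 5.13. In Ab libraries BST2 and LGALS3BP lay close together, and with the particles BST2 was the higher of the pair. IFITM3 had 62 ± 2.11, 59.5 ± 0.596 and 14.1 ± 0.216 RPKM, ISG15 51.2 ± 2.89, 52.1 ± 0.753 and 20.2 ± 1.02, and IFI6 48.8 ± 0.77, 49.1 ± 1.5 and 4.09 ± 0.573. IFI6 thus stood beside ISG15 in NR and SP and far below it in Ab. Replicate spread of the listed genes was near that of all genes in NR (median coefficient of variation 6.45%, beside 6.22%) and wider in SP (8.52%, beside 6.31%) and Ab (11.3%, beside 6.99%).

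The particle types were compared directly, NR against SP. By the paper's account the rods and spheres also differed in size, supplier and surface charge, so shape cannot be told apart from these. Of the 40 listed genes tested, 0 passed the adjusted p in edgeR, beside 0.443% of all 14903 genes tested, and 5 had an unadjusted p under 0.05. The share of all genes under that unadjusted p was not counted, so the 5 are given as a description. DESeq2 also gave 0, among the 8 listed genes for which it returned an adjusted p. The median log2 fold change of NR against SP was -0.02, and the largest in size was -0.58, for TRIM22, which was tested only through its counts in SP and moved to -0.05 without NR replicate 1 and to -1.45 without NR replicate 2. Next was MX1 at -0.56, which ranged from -0.81 without NR replicate 3 to -0.31 without SP replicate 1. The unadjusted 95% interval lay within 2-fold either way for 38 of the 40 genes and within 1.5-fold for 34. The exceptions to the 2-fold limit were the low genes MX1 and TRIM22 (-1.55 to 0.39).

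The 5 genes with an unadjusted p under 0.05 were DDX60 (log2 fold change -0.27, adjusted p = 0.211), SAMD9 (-0.35, 0.216), SAMD9L (-0.32, 0.277) and OASL (-0.19, 0.348), all with lower values in NR, and HERC5 (0.12, 0.378), with a higher one. SAMD9 passed the adjusted p without NR replicate 1 (-0.51, adjusted p = 0.00224), where it remained under 2-fold. For LGALS3BP and BST2, the listed genes with the most counts, the limits were narrow, at -0.05 to 0.09 and -0.14 to 0.02, and for IFI6 they were -0.12 to 0.11.

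**Figure D3:**
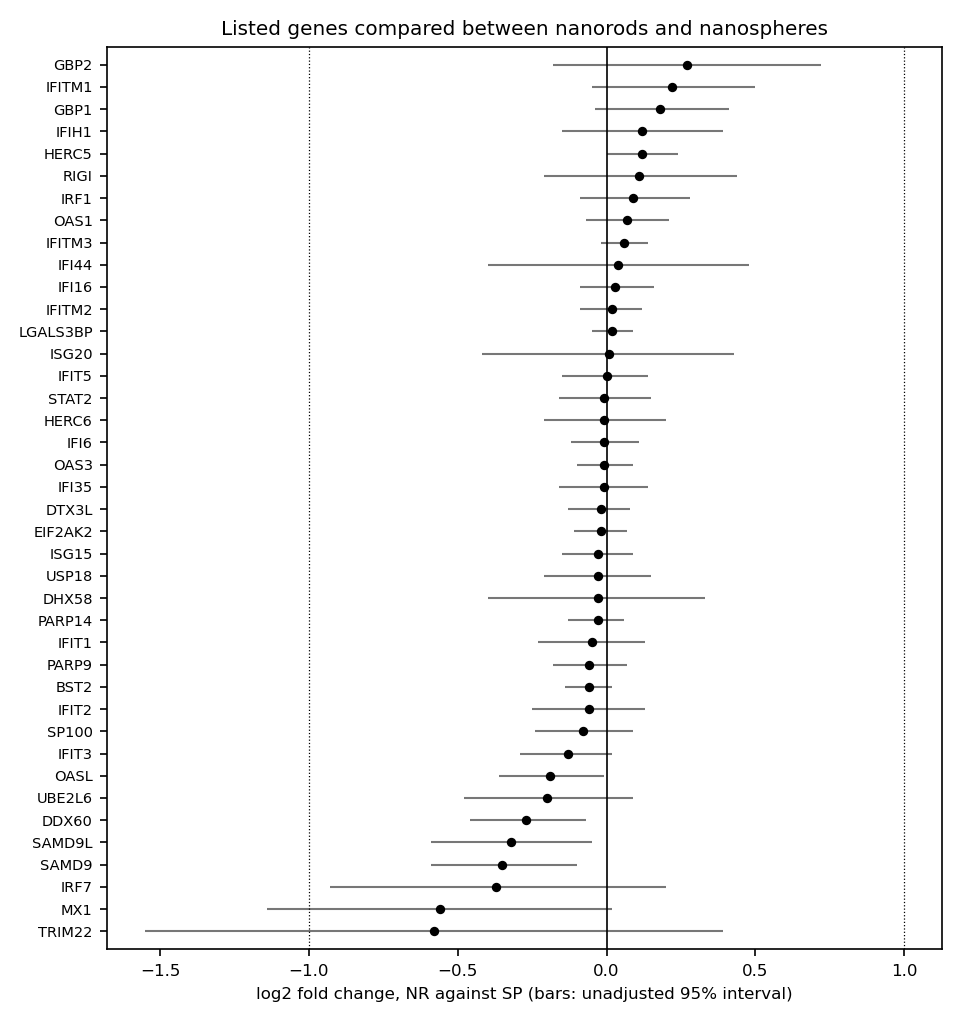
The log2 fold change of NR against SP for the 40 listed genes tested, with unadjusted 95% intervals and dotted lines at 2-fold. The points lie between -0.58 and 0.27, and the widest intervals belong to the low genes TRIM22, MX1 and IRF7.

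The genes that surround the listed ones in the pathway were taken from separate lists. Of 10 interferon genes, none was tested. IFNB1, IFNG, IFNL1 and 6 others had no count in any library, and IFNE had at most 4. Of 12 receptor and JAK-STAT genes 10 were tested and none changed 2-fold. By the adjusted p alone, 6 rose and 3 fell in NR, and 5 rose and 3 fell in SP. The share that fell was 30%, beside 36.4% of all genes in NR and 36.6% in SP. The share that rose was 60% and 50%, beside 36.4% in each. These shares rest on only 10 genes, and their distance from those of all genes was not tested. IFNAR1, a subunit of the type I receptor, went from 45.5 ± 2.53 CPM in Ab to 77.3 ± 2.62 in NR and 79.2 ± 7.2 in SP (log2 fold change 0.74 ± 0.06, adjusted p = 5.75e-12, and 0.77 ± 0.07, 5.73e-11). STAT3, a transcription factor downstream of several cytokine receptors, rose by 0.51 ± 0.05 on the log2 scale in each. IFNAR2, the other subunit, had 1 to 9 counts per library and shares 27.7% of its exon bases with other annotated genes.

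Of 20 genes listed for pathogen sensing, most of them for nucleic acids, 15 were tested, with 4 called higher and 2 lower in each comparison. The shares were 26.7% higher, beside 12.4% and 12.6% of all genes in NR and SP, and 13.3% lower, beside 10.3% and 10.6%, so the share called lower was near that of all genes. The 4 were STING1, TLR3, IKBKE and TLR4, the last of which is the receptor for bacterial lipopolysaccharide and not a sensor of nucleic acids. TLR3 did not reach the cutoff of the filter in every Ab library (4 to 10 counts there), and without it 3 of 14 were called higher (21.4%). STING1, the adaptor of DNA sensing, went from 8.62 ± 0.833 CPM in Ab to 30.6 ± 0.695 in NR and 33.4 ± 1.09 in SP (1.81 ± 0.09 and 1.94 ± 0.09), while CGAS, the enzyme that signals to it, fell by 0.75 and 0.89 on the log2 scale. TRIM25, a ligase that acts with RIGI, fell by 1.17 and 1.19, and TICAM1, the adaptor of TLR3, by 1.12 and 1.28. IRF3, the factor that starts interferon transcription, gave 0.17 ± 0.06 (adjusted p = 0.0227) and 0.20 ± 0.07 (0.0101).

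All 12 negative regulators were tested, and 2 were called higher and 2 lower in each comparison (16.7% each way), which is near the shares of all genes given above. PTPN6, a phosphatase that quiets cytokine receptors, rose by 2.18 ± 0.12 and 2.37 ± 0.12 (log2), and TRIM21 was the other called higher. SOCS2 and SOCS3, feedback inhibitors of JAK-STAT signalling, fell by 2.80 and 1.14 in NR and by 2.69 and 1.22 in SP. Of 14 genes known chiefly from interferon gamma 5 were tested, and 3 were called higher and 1 lower in each comparison (60% and 20%, of few genes). The shares of all genes were 12.4% and 12.6% higher and 10.3% and 10.6% lower in NR and SP. APOL1 rose by 2.69 ± 0.11 and 2.83 ± 0.11 and APOL2 by 1.34 ± 0.08 and 1.40 ± 0.08, with GBP3 the other. WARS1, a tryptophan tRNA synthetase, fell from 516 ± 21.1 CPM in Ab to 102 ± 2.97 in NR and 102 ± 4.09 in SP. The chemokine CXCL9 had no count in any library. In NR against SP, 0 of the 45 tested genes of these lists passed the adjusted p in edgeR. An unadjusted p under 0.05 was found for 8, and the share of all genes under it was not counted. DESeq2 gave 0 of the 9 with an adjusted p.

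**Figure D4:**
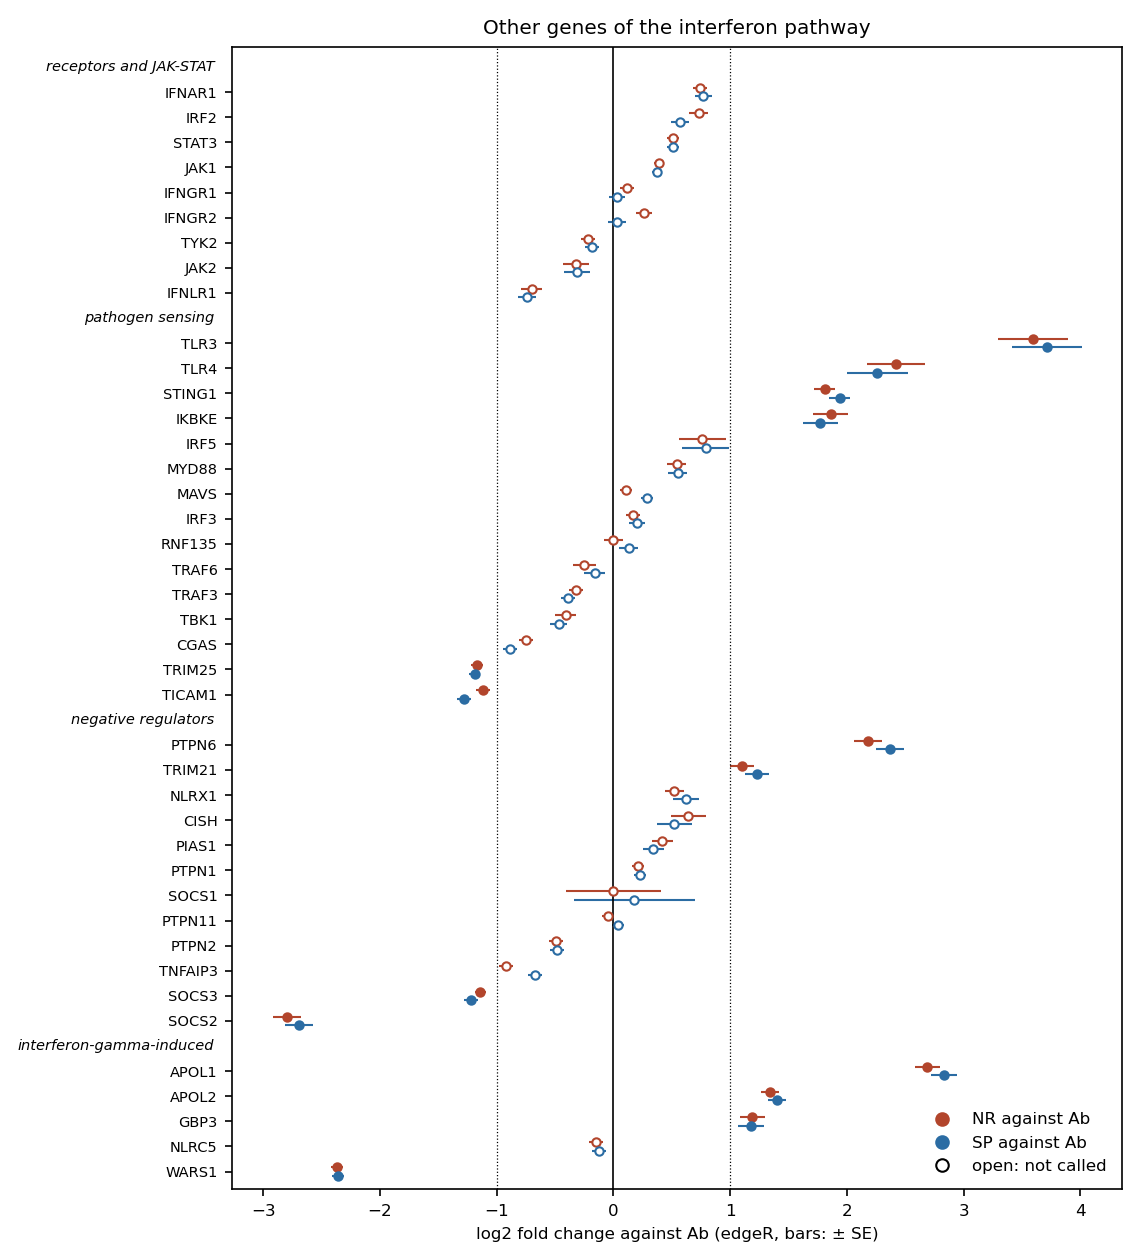
The log2 fold change against Ab of tested genes of 4 pathway lists (1 is not shown), for NR (red) and SP (blue), with bars of 1 SE and dotted lines at 2-fold. The receptor and JAK-STAT genes lie inside the 2-fold lines, and the other lists hold called genes on both sides of 0.

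Markers of cell types also moved with the groups. Of 6 epithelial markers 5 were tested and 3 (EPCAM, CDH1 and KRT8) were called higher in both comparisons. That is 60%, of few genes, beside 12.4% and 12.6% of all genes in NR and SP. The summed level of the 6, most of it KRT8, was 2263 ± 18 CPM in NR, 2344 ± 53 in SP and 900 ± 31 in Ab. The 8 leukocyte markers summed to 6.33 ± 0.703, 6.97 ± 1.19 and 1.63 ± 0.506 CPM, with CSF1R the most abundant in NR and SP. CSF1R was called higher in both comparisons, and CD14 was called lower in NR and not tested in SP. The endothelial markers CDH5 and VWF were called higher, and their list without PECAM1, which was not analysed here, summed to 22.5 ± 1.14, 22.6 ± 1.61 and 4.1 ± 0.823 CPM, nearly all of it CDH5. Of the 4 fibroblast markers, LUM rose by 5.30 ± 0.12 and 5.35 ± 0.12 and DCN by 5.14 ± 0.18 and 5.23 ± 0.18. COL1A1 and COL1A2 did not pass the test. The mean of COL1A2 ran the other way, at 0.479 ± 0.83 CPM in NR, 2.16 ± 0.0887 in SP and 7.42 ± 5.07 in Ab. The list summed to 95 ± 1.81, 101 ± 3.48 and 32.4 ± 13.5 CPM. Most of the sum was COL1A1 and LUM in NR and SP, and COL1A1 in Ab. CDH1, CSF1R and VWF were under the cutoff of the filter in every Ab library, DCN was under it in 2 of the 3, and CD14 was under it in 1 Ab library and 2 NR libraries, so the calls of these genes follow in part from the filter and are given as a description. The part of these shifts in the levels of the interferon-stimulated genes was not tested.

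The start-site windows, 250 bases before to 50 after each RefSeq gene start, were searched for the ISRE written as GAAANNGAAA and the GAS written as TTCNNNGAA, on both strands and with overlapping matches counted. Of the 49 listed genes 39 had a window. An ISRE match was found in 26 of the 39 (66.7%), beside 3.57% of all 35116 windows and 4.38% of the 27305 symbols with a window. A GAS match was found in 11 (28.2%), beside 7.66% of windows and 9.38% of symbols. Among listed genes with a window, the ISRE letters were in 14 of the 19 called higher in NR or SP (73.7%), 8 of the 12 tested and called in neither (66.7%), 4 of the 6 not tested and 0 of the 2 called lower. The shares of the called and uncalled genes were close, and their difference was not tested. IFI6 held 3 matches and IFIT5, which fell, also held 3, of which 2 are in the run printed above. A match is a description of the letters and not of a bound site.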

How the data were processed

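Poly-A libraries of SNU5 cells (3 each of NR, SP and Ab) were sequenced as paired-end reads, cleaned and aligned with Hisat2 by the authors, who name the human build hg19, and the submitters' processing notes list HISAT2 2.1.0, DESeq2 1.16.1 and the build mm9, whereas the gene IDs are human. The deposited values are whole read counts per Ensembl gene with no scaling by the authors. The counter is named differently in the sources, and strand setting and annotation release are not given in the sources used here. Names and positions came from the GENCODE release 44 annotation of GRCh37, which matched 59858 of 60880 IDs. The other 1022 held 0.102% to 0.115% of a library's counts. No batch is given. Reads shared by paralogs or overlapping genes leave the counts of such genes uncertain.

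Each pair of groups was fitted on its 6 libraries with edgeR 4.0.16 in R 4.3.3 (TMM, filterByExpr with minimum count 10 and minimum total 15, robust quasi-likelihood test, Benjamini-Hochberg adjustment over all genes tested). Standard errors were derived from the fold change and the test statistic, and the intervals of NR against SP from these and edgeR's degrees of freedom. Ratios of summed counts have exact binomial intervals, which cover counting error only. CPM are counts per 1000000 counts of a library. The medians do not depend on the fitted folds of GBP2, IRF9 and TRIM22, which are near the floor. The steps were tested on simulated data. The alternatives were DESeq2 1.42.0, RLE or library totals for scaling, no filter, at least 10 counts in every library, glmTreat, no fold minimum, all 9 libraries in 1 fit, the replicate number as a block, each library left out, and, chosen after seeing the data, the counts without genes that passed the filter through 1 group. Python 3.11.15 with pandas 2.3.3, scipy 1.17.1 and matplotlib 3.10.9 made the tables and figures. Promoters are from RefSeq, and their 39 genes were matched by symbol.

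The members and lists were chosen with earlier results of these data known. Any listed gene could be named. Values in every library are given for those called against Ab and for the 5 with the highest mean level per length over all libraries. Of each pathway list the 3 genes with the smallest adjusted p in NR against Ab were named, and IFNAR1, IFNAR2, IRF3, IFNB1, STING1 and KDR whatever their values. The other genes named from these lists were chosen after their values were seen. Some members of these lists are not reported here by name.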

Additional observations from a re-analysis of the deposited data

How the results depend on the processing

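The count of listed genes called higher was 21 to 22 in NR and 23 to 24 in SP when each library was left out, and it kept within 1.5 times of its value under every alternative run. The few genes called lower were less stable. In NR against Ab 1 was called lower with at least 10 counts in every library and with glmTreat, 5 without a fold minimum, and 1 to 2 with a library left out (1 without Ab replicate 3). Leaving out the genes that passed the filter through 1 group, chosen after seeing the data, gave 1 called lower in NR and 1 in SP. In SP against Ab 1 was called lower with DESeq2, with no filter, with at least 10 counts in every library and with glmTreat, and 1 to 2 with a library left out. By the adjusted p alone, an analysis chosen after seeing the data, 3 fell in NR with DESeq2 and 3 to 4 with a library left out. The median change (log2) was 0.99 for NR with no filter, 1.08 with all 9 libraries in 1 fit and 1.04 to 1.15 with a library left out, and in SP 1.04 with DESeq2 and 1.13 with no filter. The cause was not tested, except that fewer or more genes are tested under other filters.

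In NR against SP, 1 listed gene (SAMD9) passed the adjusted p with no filter (0.000325) and with the replicate block (0.0361), and 0 to 1 with a library left out. The replicate numbers did not pair the libraries: deviations of same-numbered libraries correlated at -0.0317 to 0.0279. With the number as a block 21 and 24 listed genes were called higher against Ab, as without it. With a library left out, the NR change ranged from -0.05 (without NR replicate 1) to 0.37 for ISG20 and from -0.17 (without Ab replicate 1; -0.12 without NR replicate 1) to 0.24 for SAMD9, so that its sign reversed in these cases, and neither gene was called. With glmTreat the calls of IFI16, IFIT3 and UBE2L6 were lost in NR and those of IFI35, IRF9, MX1 and UBE2L6 in SP. UBE2L6 (NR) also lost its call with no filter, UBE2L6 (NR) and IFI35 (SP) with at least 10 counts in every library, IFI35 (SP) with all 9 libraries in 1 fit, and IRF9 (SP) with DESeq2 or no filter, while IFI35 gained one in NR with library totals alone and TRIM22 one in NR with no filter. Scaling moved the median of all genes by less than the limit of 0.1. Depth limits the genes with few counts, such as IRF9, TRIM22 and MX1.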
